A study of Mus musculus with 13 samples.

Results

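The early response to mild cold was taken from the array pairs at 0.5, 1 and 2 h, 6 of the 13 arrays of the series: 3 of primary mouse embryonic fibroblasts moved to 32°C (hypothermia) and 3 of the same cells kept at 37°C (normothermia), compared as 32°C minus 37°C within each time. The pairs were chosen by time and temperature alone. The fibroblasts, connective tissue cells from mouse embryos bought from Millipore, were grown in DMEM with 10% serum at 37°C until they were 60 to 70% confluent, and the incubator was then lowered to 32°C or left at 37°C. Pooled RNA of 3 dishes went onto each array, so each temperature and time was measured once, with no replicate arrays, and every difference at a given time is 1 array against 1 array. The array at 0 h, at 37°C, is the start of both courses, and the pairs at 4, 8 and 18 h serve as later arrays that share none with the early ones. An SD given here is the spread between the 3 pairs, which also takes in real change between 0.5 and 2 h. An SE is from the limma fit, which moderates each gene's residual spread toward that of all genes, and the SE of a change per step is about the fitted change. The number of arrays limits the precision.

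Cells that have their medium, temperature or handling disturbed switch on immediate early genes within minutes. These genes, which encode AP-1 subunits, EGR zinc finger factors and NR4A nuclear receptors, need no new protein for their transcription, and their short-lived transcripts are shut off again by feedback regulators such as the dual-specificity phosphatases. Lowering the temperature slows transcription, processing and decay of RNA in general, while a small set of genes led by Cirbp, which encodes an RNA-binding protein, is known for induction by mild cold.

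The values were intensities, used here as log2, for 19938 genes. The medians of the early arrays differed by 0.027 (log2). The 13 fibroblast markers had a median level of 11.58 over the early arrays, against 6.09 to 6.79 for the marker lists of 6 other cell types (erythroid, epithelial, neural or glial, muscle, endothelial and macrophage). The summed level of the fibroblast markers lay between 15.59 and 15.63 at 37°C and between 15.57 and 15.64 at 32°C. In single pairs at 0.5, 1 and 2 h, 284, 319 and 630 genes were higher at 32°C by a log2 difference of 0.32 or more, and 571, 407 and 636 were lower by as much.

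Of a set of genes raised over the first 2 h, led by immediate early genes, most had their highest array between 0 and 4 h later at 32°C than at 37°C. Over the mean of the 6 early arrays, 47 genes were at least 1.5-fold above 0 h, a choice made after values had been seen and one that does not use the difference between temperatures. Of these, 41 were lower at 32°C at 0.5 h, and 37 were higher at 32°C at 2 h, against 7877 and 10302 of all 19938 genes. The median difference of the 47 genes was -0.23 at 0.5 h, 0.18 at 1 h, 0.44 at 2 h and 0.26 at 4 h, against medians of 0.03, 0.00, 0.01 and 0.00 over all genes. The highest value between 0 and 4 h came at a later time at 32°C than at 37°C in 32 of the 47 genes, at the same time in 12 and earlier in 3. At 37°C it came at 0.5 h in 17 genes, at 1 h in 20 and at 2 h in 10, and at 32°C at 0.5 h in 3, at 1 h in 21, at 2 h in 18 and at 4 h in 5. The highest value itself was higher at 32°C in 32 of the 47 genes and lower in 14, with a median difference of 0.14 (log2, 32°C minus 37°C). Neither the time nor the level of the highest value was counted over all genes, so no share stands beside these counts. The set also holds genes of small noncoding RNAs. Snora75 among them, counted as later, was at most 1.34-fold above 0 h at 37°C and 2.7-fold at 32°C. The choice of 1.5-fold ended between Npas4, with a mean of 0.59 above 0 h, and Ch25h, with 0.58.

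Egr2, a zinc finger transcription factor of the serum response, shows the crossing most plainly. It stood at 8.35 at 0 h, and at 10.89, 10.26 and 9.10 (log2) at 0.5, 1 and 2 h at 37°C, against 9.86, 10.70 and 9.57 at 32°C. The array at 0.5 h was thus the highest at 37°C and the array at 1 h the highest at 32°C, and the difference went from -1.03 to 0.44 and 0.46. Fosb, a subunit of the AP-1 factor, stood at 9.47, 9.23 and 8.12 at 37°C and at 9.11, 9.99 and 9.27 at 32°C, from 7.45 at 0 h. It was 0.78-fold of its 37°C level at 0.5 h and 2.21-fold at 2 h. Atf3, a stress-induced relative of the AP-1 subunits, stood at 9.33, 8.95 and 7.97 at 37°C and at 8.90, 9.47 and 9.12 at 32°C, which is 0.744-fold at 0.5 h and 2.23-fold at 2 h.

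Fos, the AP-1 subunit that names the class, differed in shape. Its values at 37°C were 9.54, 7.76 and 7.58, and at 32°C 9.39, 9.25 and 7.88, from 7.59 at 0 h. Both arrays at 0.5 h were far above 0 h, but at 1 h the transcript was back near its start at 37°C and still high at 32°C, a 2.81-fold difference. Ier2, an immediate early nuclear protein, was 1.08-fold of its 37°C level at 0.5 h, 2.31-fold at 1 h and 1.17-fold at 2 h. Zfp36, which promotes the decay of short-lived transcripts, and Egr1 were likewise apart mainly at 1 h, 1.76-fold and 1.56-fold, and close to their 37°C values at 2 h, 0.906-fold and 0.958-fold. Klf10, a zinc finger repressor induced by TGF-beta, was later still. It stood at 9.02, 10.24 and 9.26 at 37°C and at 8.78, 9.66 and 10.33 at 32°C, so that its highest array was at 1 h at 37°C and at 2 h at 32°C.

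The 3 NR4A orphan nuclear receptors were all lower at 32°C at 0.5 h and higher at 1 h and 2 h. Nr4a1 had differences of -0.36, 0.26 and 1.02, Nr4a2 of -0.12, 0.41 and 0.67, and Nr4a3 of -0.49, 0.13 and 0.62. All of them were still higher at 4 h, by 1.08, 1.04 and 1.22. Of the secreted ligands, Ereg, which activates the EGF receptor, stood at 11.23, 11.40 and 11.10 at 37°C and at 10.78, 11.56 and 11.65 at 32°C. Lif, a cytokine of the interleukin 6 family, did not start lower: its differences were 0.03, 0.18 and 1.21.

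**Figure D1:**
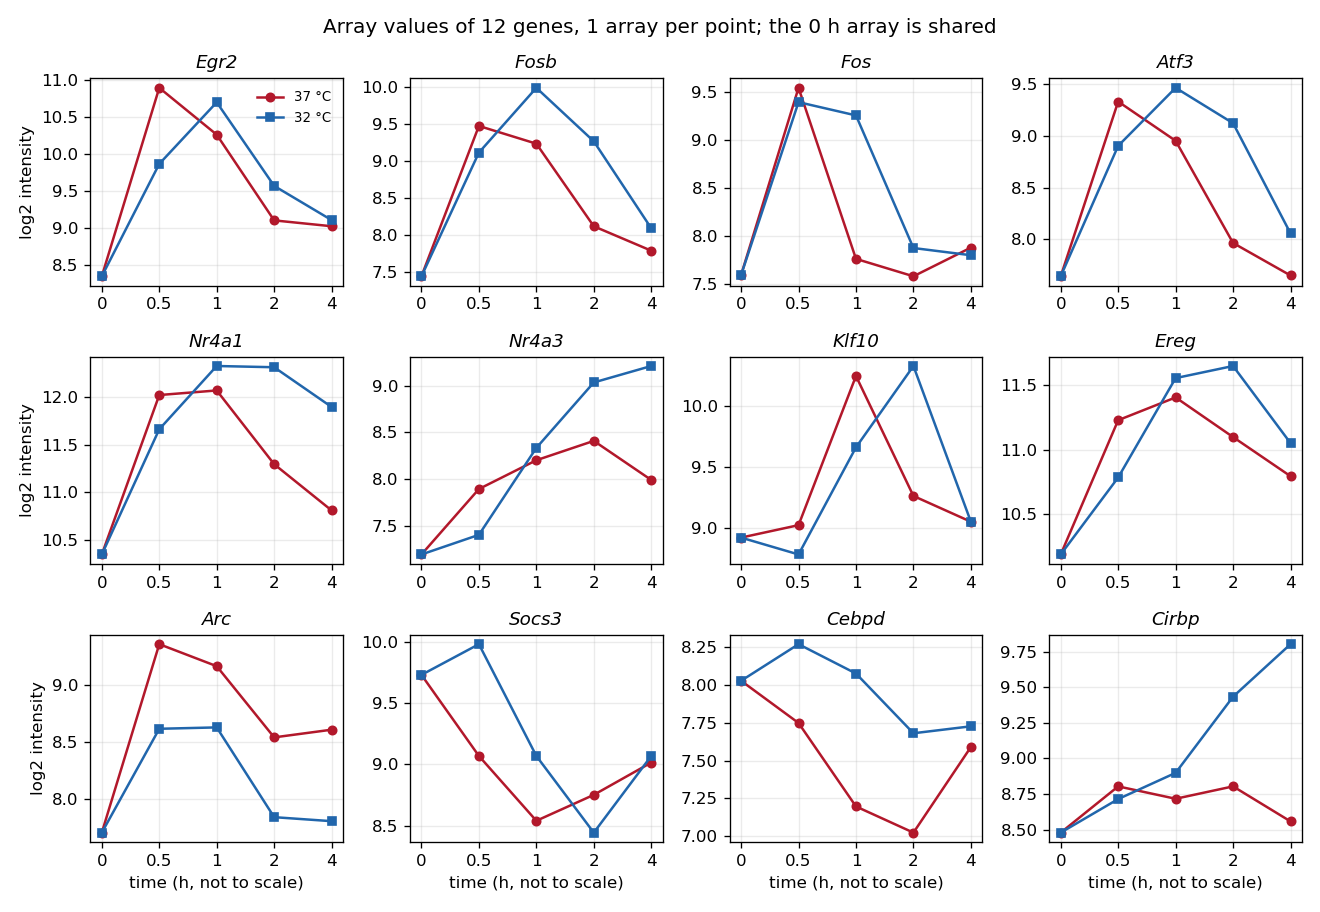
Log2 intensity of 12 genes at 0, 0.5, 1, 2 and 4 h (times not to scale) at 37°C (circles) and 32°C (squares), 1 array per point, with the array at 0 h shared. Egr2, Fosb and Atf3 were highest at 0.5 h at 37°C and at 1 h at 32°C, Arc was lower at 32°C at every time after 0 h shown, and Cebpd was higher.

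In 6 of the 47 genes (12.8%) the level was lower at 32°C in all 3 pairs, and in 6 (12.8%) it was higher. Over all genes the shares were 11.2% and 17.5%. Over genes at or above the median signal, which hold 41 of the 47, they were 9.12% and 25.4%. Arc and Npas4, known as activity-regulated genes of neurons, were among the 6 of the set that were lower. The BMP-responsive Id2, Id3, Id4 and Atoh8, which encode helix-loop-helix factors, were also lower in all 3 pairs: Id2 had differences of -0.43, -0.47 and -0.01, and Atoh8 of -0.02, -0.51 and -0.70. Id1 was lower by 0.36 at 0.5 h, lower by 0.35 at 1 h and higher by 0.39 at 2 h. Krt6a, with differences of 0.06, 2.31 and 0.27, owed its place to the array at 1 h and 32°C, where it read 7.35 against 4.77 to 5.10 on the other arrays from 0 to 4 h. Its level was below the median of all genes.

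**Figure D2:**
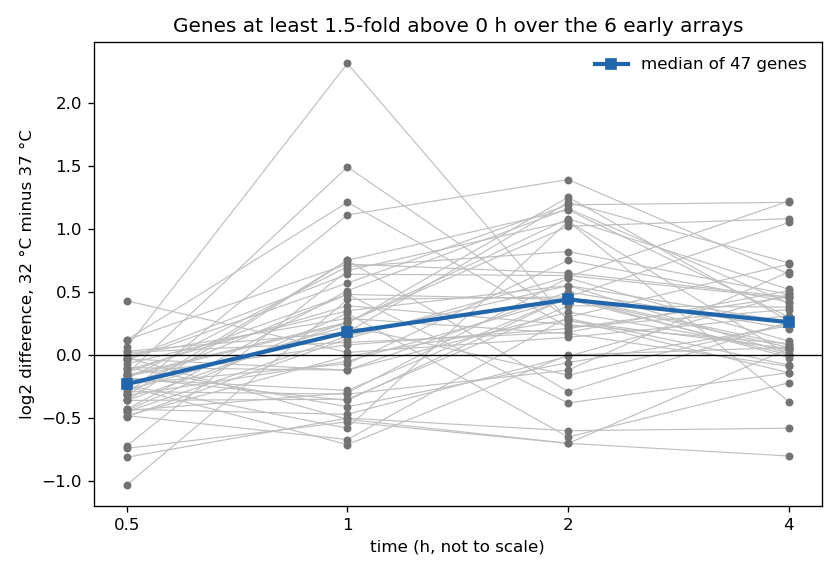
Log2 difference (32°C minus 37°C) at 0.5, 1, 2 and 4 h (times not to scale) of the 47 genes at least 1.5-fold above 0 h over the 6 early arrays. Each grey line and point is a gene and the blue squares are the medians, -0.23, 0.18, 0.44 and 0.26, which lie below 0 at 0.5 h and above 0 from 1 h on.

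Only 2 genes were at least 1.5-fold below 0 h by the same measure, Socs3 and Bcl3, and both were higher at 32°C at 0.5 h and 1 h. Socs3, a feedback inhibitor of JAK and STAT signalling, stood at 9.73 at 0 h, at 9.07, 8.54 and 8.75 at 37°C and at 9.98, 9.07 and 8.44 at 32°C. Its value at 1 h and 32°C was the same, to 2 decimals, as at 0.5 h and 37°C. Bcl3, a nuclear partner of NF-kappaB, stood at 10.13 at 0 h, at 9.71, 8.92 and 8.53 at 37°C and at 10.17, 9.67 and 8.68 at 32°C. A second transcript cluster of Socs3, of lower signal, gave differences of 0.15, 0.18 and -0.07, with the same signs as the 0.91, 0.53 and -0.31 of the one used.

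Whole arrays were then compared across times, over the 9969 genes with a mean level at or above the median (genes of higher signal). The distance between 2 arrays was measured as the SD of their log2 difference over these genes. The array at 1 h and 32°C lay nearer to the array at 0.5 h and 37°C (0.092) than to its own time at 37°C (0.123). The array at 2 h and 32°C lay nearer to 1 h and 37°C (0.146) than to 2 h and 37°C (0.179). The array at 0.5 h and 32°C was nearest to 0.5 h and 37°C (0.166), with 0.183 to the array at 0 h. These distances share arrays, and no test was run on them.

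**Figure D3:**
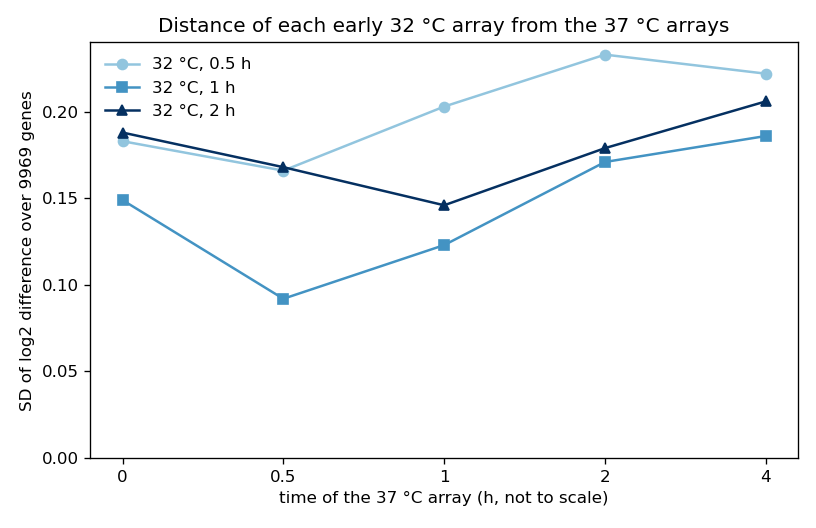
SD over 9969 genes of the log2 difference between each early 32°C array (lines) and the 37°C arrays at 0, 0.5, 1, 2 and 4 h (x axis, not to scale). The array at 1 h and 32°C has its lowest distance, 0.092, at 0.5 h and 37°C, and the array at 2 h and 32°C its lowest, 0.146, at 1 h and 37°C.

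Promoter sequence was looked at for the 28 of the 47 genes that had a start site in the RefSeq table used (build GRCm38.p6, 250 bases before to 50 after each start). The cyclic AMP response element TGACGTCA was found, on either strand, in 3 of the 28 (10.7%), against 2.72% of the 15614 measured genes with a promoter there, and the CArG box, the site of serum response factor, in 2 (7.14%, against 1.63%). The AP-1 motif TGANTCA was in 2 (7.14%, against 8.08%) and the E-box CACGTG in 5 (17.9%, against 9.5%). Each stretch below carries either the cyclic AMP response element or the CArG box, and none carries both. They are examples, and a stretch of Ppp1r15a and another of Egr2 are not shown. Capitals mark the motif, of which Dusp5 holds a pair side by side. All stretches shown lie upstream of a start site of their gene and are written 5′ to 3′ on the strand of the gene. Egr2 has more than 1 start site, and its stretch shown lies upstream of 1 of them and downstream of another.
Dusp5, chr19:53529053-53529092, plus strand: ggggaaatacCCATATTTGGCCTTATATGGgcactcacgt
Egr2, chr10:67537787-67537816, plus strand: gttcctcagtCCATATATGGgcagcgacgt
Btg2, chr1:134079304-134079331, minus strand: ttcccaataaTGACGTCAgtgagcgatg
Dusp1, chr17:26508598-26508625, minus strand: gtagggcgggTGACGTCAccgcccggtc
Dusp5 and Dusp1 encode phosphatases that switch off MAP kinases, and Btg2 an antiproliferative factor. Their differences between temperatures were as follows. Dusp1 had differences of -0.03, 0.64 and 0.63, Btg2 of -0.12, 0.39 and 0.24, and Dusp5 of 0.00, 0.29 and 0.17. A match is a description of the letters only.

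Whether the difference changed over the first 2 h was tested with limma, as the log2 change of the difference per step of time (0.5 to 1 h, 1 to 2 h). With all 19938 genes no gene passed an adjusted p under 0.05 in either direction (0% rising, 0% falling, lowest adjusted p 0.276), while 2054 had an unadjusted p under 0.05. With the 9969 genes of higher signal, 97 rose (0.973%) and 37 fell (0.371%), with a lowest adjusted p of 0.00279. This count turns on the filter: with the genes above the 25th percentile it was 1 and 0, and with relative ranks in place of log2 values in the filtered set it was 0 and 0. The values below are from the filtered set, in which 41 of the 47 genes above 0 h were tested and 15 rose and 1 fell.

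The lowest adjusted p was that of Atf3, whose difference rose by 0.79 per step (SE 0.078, limma adjusted p = 0.00279). Nr4a1 followed with 0.69 per step (SE 0.072, limma adjusted p = 0.00323). Fosb rose by 0.75, Csrnp1, a nuclear factor induced by growth signals, by 0.71, the kinase gene Pim1 by 0.62 and Nr4a3 by 0.56, each with a limma adjusted p of 0.00739. Outside the genes above 0 h, Tnfaip6, a secreted hyaluronan-binding protein, had differences of -0.25, 0.38 and 0.85. The clock repressor Ciart had differences of -0.10, 0.31 and 0.93, Per1 of -0.12, 0.31 and 0.67, and Bhlhe40 of -0.05, 0.32 and 0.95. All of these passed in the filtered set. Of the 28 immediate early transcription factors listed, 27 were above the median and 7 rose. Of 19 clock genes listed, 16 were above it and 4 rose. Of all genes in the filtered set, 0.973% rose. The immediate early list shares members such as Nr4a3 with the 47 genes above 0 h, so these counts are not separate.

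Of the 205 zinc finger genes with a Zfp name above the median, a group singled out after values had been seen, 8 fell and 3 rose, against 0.371% and 0.973% of all genes in the filtered set. Zfp418 had the largest change of those named here, with differences of 0.12, -0.34 and -0.93 (limma adjusted p = 0.00739). Zfp691 had 0.27, -0.06 and -0.54, and Zfp87 had 0.13, -0.31 and -0.58. Over all 345 measured Zfp genes the medians were -0.01, -0.02 and -0.11, and those at 4, 8 and 18 h were -0.15, -0.07 and -0.13. Of the 345, 84 (24.3%) were lower in all 3 early pairs and 27 (7.83%) higher, against 11.2% and 17.5% of all genes.

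Counted by sign alone, 5588 genes (28%) were higher at 32°C at 0.5 h and lower at 2 h, and 4255 (21.3%) went from lower to higher. Among genes of higher signal the shares were 25% and 25.8%. With a log2 difference of 0.32 or more at both ends, 18 genes (0.0903%) went from higher to lower and 52 (0.261%) from lower to higher. Of the 18, 6 lay above the median signal, and of the 52, 38. With quantile normalization the 18 became 9. Of the 28 immediate early factors, 17 were lower at 0.5 h and higher at 2 h and 2 the reverse. Of 17 feedback regulators of ERK signalling the counts were 9 and 2, and of 24 NF-kappaB targets and chemokines 14 and 3. Of 25 CLK kinases and SR splicing factors, 14 were lower at 0.5 h and higher at 2 h and 2 the reverse, and of 18 p53 targets 10 and 5. The reverse order led among 31 extracellular matrix genes, 14 of which were higher at 0.5 h and lower at 2 h and 4 the opposite.

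The genes of higher signal that went from lower to higher were ordered by the smaller of their differences at 0.5 and 2 h, and Ch25h, Nr4a3, Egr2, Stil, F3, Nipal1, Ereg and Ankrd1 led. Ch25h, which makes 25-hydroxycholesterol, stood at 8.67, 8.06 and 7.66 at 37°C and at 8.03, 8.63 and 8.31 at 32°C. Its highest early array was again at 0.5 h at 37°C and at 1 h at 32°C. Stil, needed for centriole duplication, had differences of -0.46, -0.08 and 0.84. F3, tissue factor, which starts coagulation, had -0.45, -0.03 and 0.59. Ankrd1, a target of YAP, had -0.44, -0.30 and 0.61.

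For genes that went from higher to lower, the same order began with Fbxl8, Ajuba, Cbx2, Zfp553, Fam83h, Ccnf, Med18 and Socs3. Ajuba, a LIM protein of cell junctions, stood at 9.21, 9.39 and 9.66 at 37°C and at 9.61, 9.28 and 9.16 at 32°C. At 37°C its highest early array was the one at 2 h and at 32°C the one at 0.5 h. Cbx2, a Polycomb subunit, had differences of 0.35, -0.18 and -0.37. Ccnf, cyclin F, had 0.33, 0.34 and -0.76, and it missed the threshold in the filtered set (limma adjusted p = 0.0534).

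A difference of the same sign in all 3 pairs was found for 3494 genes higher at 32°C (17.5%) and 2230 lower (11.2%). Among genes of higher signal it was 2533 (25.4%) and 909 (9.12%). The share of higher among genes of 1 sign was 61.0% as deposited and 73.6% above the median signal, but 52.9% after quantile normalization (3063 and 2732 genes). The excess of genes higher at 32°C thus depends on the scaling. The mean difference over the 3 pairs passed an adjusted p under 0.05 in no gene, higher or lower (limma, 0% and 0%), with 1395 genes at an unadjusted p under 0.05 and a lowest adjusted p of 0.294. With the pair at 0.5 h left out, 1 gene passed.

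With a log2 difference of 0.32 or more in every pair there were 5 genes higher (0.0251%) and 10 lower (0.0502%), 4 and 6 of them above the median signal. The 5 were Cebpd, Snord118, Cxcl1, Gas1 and H1f3. Cebpd, a basic leucine zipper factor of the acute-phase response, stood at 7.75, 7.20 and 7.02 at 37°C and at 8.27, 8.08 and 7.68 at 32°C, from 8.03 at 0 h. Its level was lower on each later array of both early courses, and the array at 1 h and 32°C still stood above that at 0 h. The mean difference was 0.69 (SD 0.181, n = 3 pairs, 1.61-fold, limma adjusted p = 0.294). Cxcl1, a chemokine for neutrophils, had differences of 0.34, 0.46 and 0.38, and Gas1, a membrane protein of growth arrest, of 0.32, 0.42 and 0.37. Both differences had ended or turned by 8 h, with -0.26 for Cxcl1 and -0.13 for Gas1.

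Several of the genes higher in all 3 pairs encode small noncoding RNAs or linker histones, while the microRNA genes Mir376a and Mir568 were lower in all 3. Snord118, also called U8 and needed for maturation of the large ribosomal subunit, stood at 8.25, 8.19 and 7.96 at 37°C and at 8.63, 8.67 and 9.05 at 32°C, with no overlap between temperatures. Its mean difference was 0.65 (SD 0.381, n = 3 pairs). Its 2 transcript clusters hold the same values and are not independent. Vaultrc5, a vault RNA, had differences of 0.31, 0.65 and 0.60, and Rnu3a, a U3 small nucleolar RNA, of 0.28, 0.28 and 0.35. The linker histones H1f2 and H1f3 had 0.30, 0.33 and 0.60, and 0.53, 0.51 and 0.57. H1f3 lay below the median signal. Rcor2, a subunit of a corepressor complex, Sbno2, Gatd3a, Dcaf4 and Cbr3, a carbonyl reductase, completed the 12 of higher signal with the largest weakest pair.

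**Figure D4:**
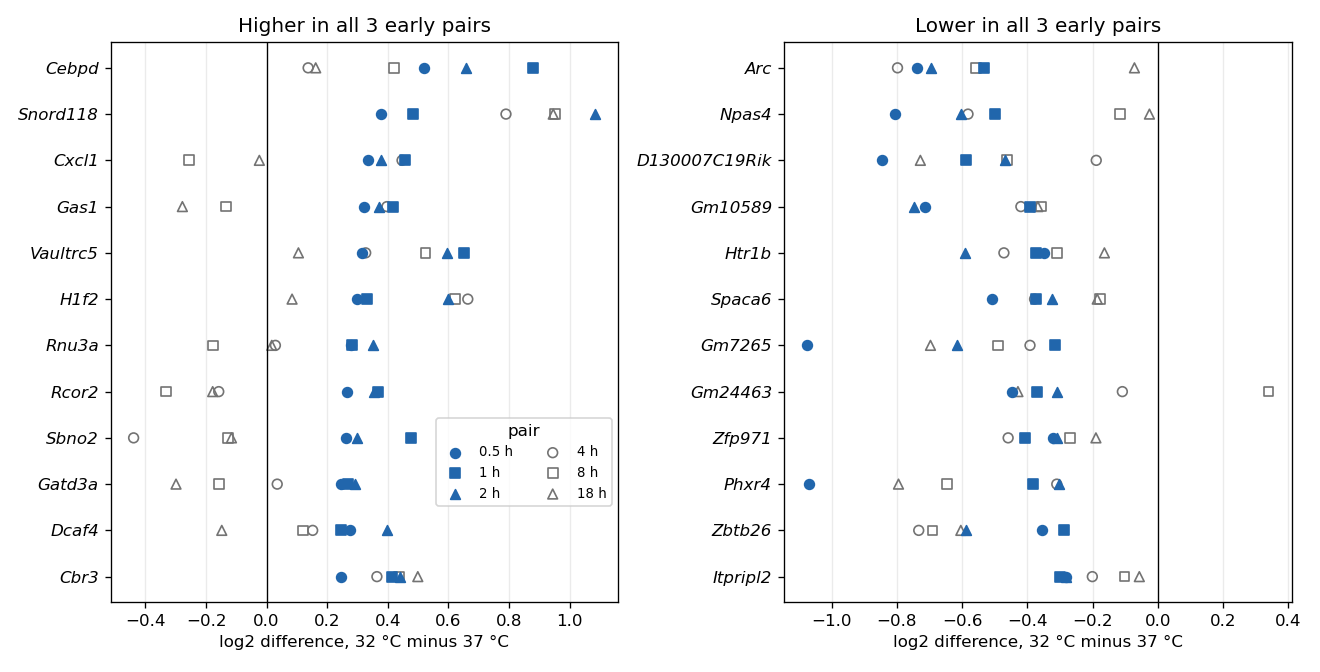
Log2 difference (32°C minus 37°C) in each pair for the 12 genes of higher signal with the largest weakest early pair, higher (left) and lower (right). Filled symbols are the early pairs at 0.5, 1 and 2 h and open ones the late pairs at 4, 8 and 18 h: Rcor2 and Sbno2 are above 0 in the early and below 0 in the late pairs, while Arc and Zbtb26 are below 0 in all 6.

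Lower in all 3 pairs, Arc led. It stood at 9.35, 9.16 and 8.54 at 37°C and at 8.62, 8.63 and 7.84 at 32°C, from 7.71 at 0 h, so that it was above 0 h on every early array but lower at 32°C at each time. The mean difference was -0.66 (SE 0.070, limma adjusted p = 0.294). Npas4, an activity-dependent transcription factor, stood at 8.05, 8.31 and 8.18 at 37°C and at 7.24, 7.81 and 7.58 at 32°C, from 7.27 at 0 h. At 0.5 h and 32°C it was still at its start. Htr1b, a serotonin receptor, stood at 10.91, 11.26 and 11.39 at 37°C and at 10.56, 10.88 and 10.80 at 32°C, against 10.56 at 0 h. Its values at 0.5, 1 and 2 h at 37°C were all above those at the same 3 times at 32°C. The others of higher signal were the unnamed transcripts D130007C19Rik, Gm10589, Gm7265 and Gm24463, and Spaca6, Zfp971, Phxr4, Zbtb26 and Itpripl2. A second cluster of Itpripl2 gave -0.07, 0.06 and -0.14, so its sign in the pair at 1 h rests on the cluster used. The 4 genes below the median signal were Mir376a, Mir568, Olfr591 and Phf11c.

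The later arrays were then used to see which of these 15 genes went on. Of all genes, 3985 (20%) were higher and 4029 (20.2%) lower in all 3 late pairs. Of the 5 genes higher early, 2 were higher in all 3 late pairs, Cebpd and Snord118. Of the 10 lower early, 7 were lower in all 3 late pairs. Together 9 of the 15 kept their sign and none was opposite in all 3. By sign alone, 956 of the 3494 genes higher early (27.4%) were higher in all 3 late pairs, which is 24.0% of the genes higher late. Of the 2230 lower early, 583 (26.1%) were lower late, 14.5% of those lower late. The mean early and the mean late difference were compared directly, and no gene passed (limma, 0% higher early and 0% lower early, lowest adjusted p 0.0971), with 2285 genes at an unadjusted p under 0.05. Of the 52 genes that went from lower to higher, 19 were higher in all 3 late pairs and 7 lower.

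Lists of cellular machinery differed by small amounts. Their counts are to be read against all genes, of which 17.5% were higher in all 3 early pairs and 11.2% lower (3494 and 2230, or 3063 and 2732 after quantile normalization). Most members of these lists were genes of higher signal, such as 38 of the 41 DNA replication genes and all 31 proteasome genes. Among all genes of higher signal the shares were 25.4% and 9.12% as deposited, the closer measure for these lists. These shares were not counted after quantile normalization, so the normalized counts of the lists have no such measure beside them. Of 41 DNA replication genes, 24 (58.5%) were higher and 1 (2.44%) lower. Their medians were 0.14, 0.05 and 0.15 in the early pairs, and 0.14, 0.07 and -0.53 at 4, 8 and 18 h. Among them Rfc2, a clamp loader subunit, had 0.29, 0.18 and 0.39, and the helicase subunit Mcm3 had 0.18, 0.13 and 0.19. With quantile normalization 15 were higher and 1 lower. Of 31 mitosis genes 13 (41.9%) were higher and 1 lower, 8 and 2 after quantile normalization. Their medians at 4, 8 and 18 h were 0.01, 0.21 and -0.67. Of 36 oxidative phosphorylation genes 18 were higher and 2 lower, and 13 and 1 after quantile normalization. Sdhb, a subunit of complex II, had 0.17, 0.19 and 0.16. Of 31 hypoxia and glycolysis genes 17 (54.8%) were higher and 4 lower, 11 and 4 after quantile normalization. Of 33 ribosomal protein genes 15 (45.5%) were higher and 1 lower, 14 and 0 after quantile normalization. Of 31 proteasome genes 12 (38.7%) were higher and 0 lower, 8 and 0 after it, and of 10 tubulins 7 and 0, which became 4 and 0. Each of these medians was at or under 0.15 in size in every early pair, and no member passed the test of the mean.

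Of 24 genes of the integrated stress response, 13 (54.2%) were higher in all 3 pairs and 1 (4.17%) lower, 8 and 1 after quantile normalization. As deposited, the shares were 17.5% and 11.2% of all genes, and 25.4% and 9.12% of genes of higher signal. The largest differences of this stress response list were in Chac1, which degrades glutathione, with 0.03, 0.35 and 0.85, and in Ppp1r15a, a phosphatase subunit that restores translation, with -0.19, 0.70 and 0.82. Trib3 had 0.00, 0.08 and 0.46, and Atf4, whose product drives the pathway, had 0.03, 0.05 and 0.14. Of 25 CLK and SR genes, 6 (24.0%) were lower in all 3 pairs and 2 (8.0%) higher, 8 and 3 after quantile normalization. The list's median was -0.21 at 0.5 h, -0.02 at 1 h and 0.05 at 2 h. Clk1, a kinase of splicing factors, stood at 9.44, 10.07 and 10.37 at 37°C and at 9.18, 9.57 and 9.82 at 32°C, against 9.90 at 0 h, so that no early array at 32°C reached its start. Rsrp1, a protein rich in arginine and serine, had differences of -0.40, -0.27 and -0.83. Of 30 cytosolic heat shock chaperones 5 (16.7%) were higher and 1 (3.33%) lower, but 4 and 4 after quantile normalization. Their medians were 0.00, -0.01 and 0.07. The 16.7% is near the 17.5% of all genes and below the 25.4% of genes of higher signal. Of 18 BMP and TGF-beta targets 5 (27.8%) were lower in all 3 pairs and 0 higher, 7 and 0 after quantile normalization. Of 20 SRF and YAP targets 6 (30.0%) were lower and 0 higher, which became 3 and 0 after quantile normalization.

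**Figure D5:**
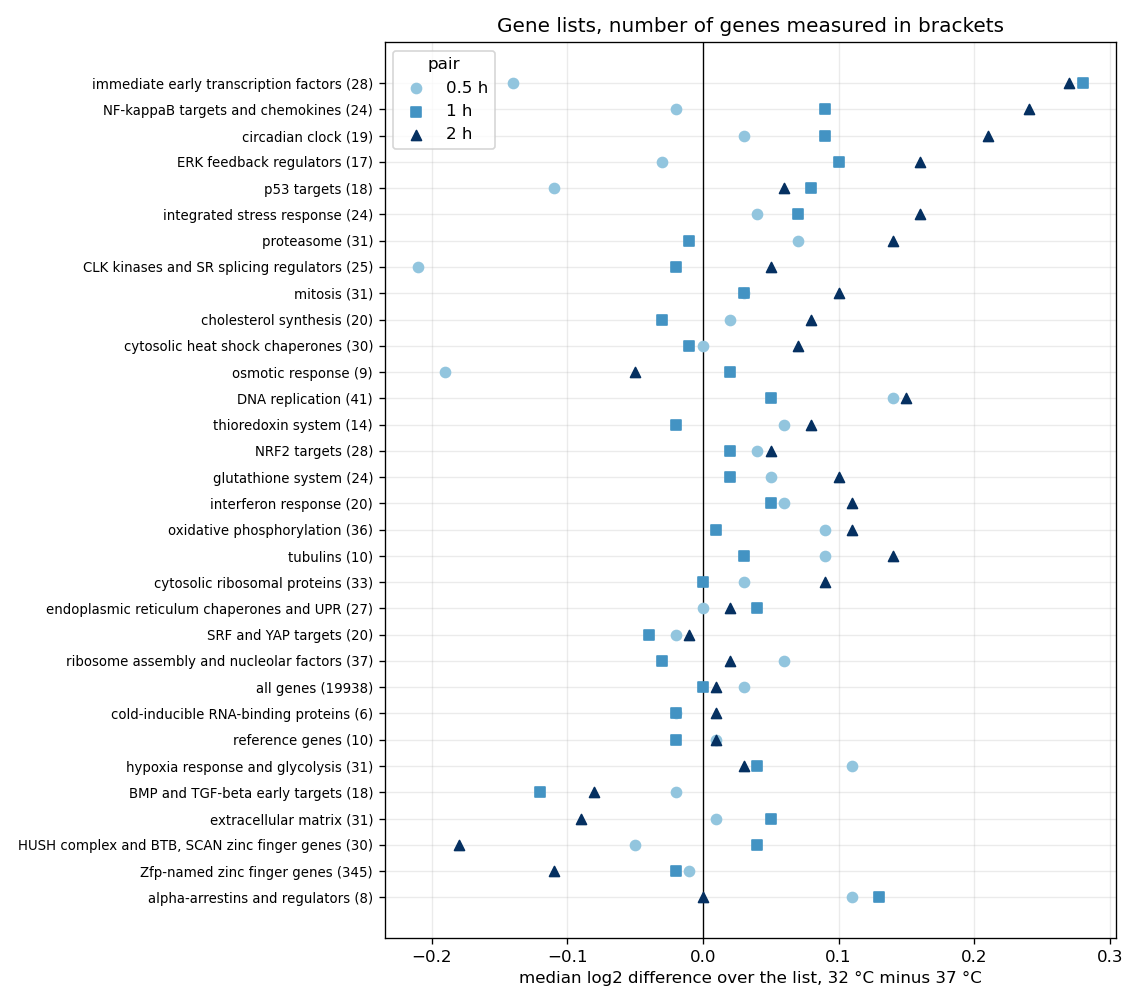
Median log2 difference (32°C minus 37°C) of each gene list at 0.5 h (circles), 1 h (squares) and 2 h (triangles), ordered by the median change per step, with the number of genes measured in brackets. The immediate early factors go from -0.14 to 0.28 and 0.27, the CLK and SR genes from -0.21 to 0.05, and the zinc finger lists are lowest at 2 h.

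The cold-inducible RNA-binding proteins were hardly apart in the first hour. Cirbp stood at 8.80, 8.72 and 8.80 at 37°C and at 8.71, 8.90 and 9.43 at 32°C, from 8.48 at 0 h. Its difference of -0.09 at 0.5 h, 0.18 at 1 h and 0.63 at 2 h rose by 0.36 per step (SE 0.073, limma adjusted p = 0.0351 in the filtered set and 0.44 over all genes), and was 1.24 at 4 h. Rbm3, known as its partner in the cold response, had differences of -0.02, -0.04 and 0.12. Its 3 transcript clusters had the same signs in each pair and differences of at most 0.14 in size. Rbm10, listed with them, had 0.20, 0.04 and 0.03, but it was lower at 32°C at 4, 8 and 18 h (-0.24, -0.58 and -0.42). Of the antioxidant genes the study singled out, Srxn1, sulfiredoxin, had 0.14, 0.03 and 0.29, Nqo1 had 0.14, -0.08 and 0.28, Txnrd1 had -0.03, 0.04 and 0.17, and Gclc had 0.00, 0.01 and 0.06. Gss, glutathione synthetase, had 0.16, -0.05 and 0.14, and Txnrd3, a thioredoxin reductase, had 0.20, 0.07 and 0.12. At 18 h these 6 genes had differences of 0.61, 1.63, 0.39, 0.33, 0.38 and 0.51. Txnip, which binds thioredoxin, had 0.21, 0.59 and 0.30. The reference gene Ywhaz had -0.05, 0.00 and 0.01, and a second cluster of it, of lower signal, had 0.04, 0.04 and 0.08.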

How the data were processed

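RNA of primary mouse embryonic fibroblasts was measured on Affymetrix Mouse Gene 1.0 ST arrays, 1 per temperature and time. The authors deposited intensity values on a linear scale for 28853 transcript clusters; the sources used here do not say how probes were summarized or normalized. Array medians differed little, so log2 was taken with no further scaling. Of 23410 annotated clusters, 1621 with several symbols were left out, and each of 19938 genes was represented by its cluster with the highest mean. Early pairs were fitted in limma 3.58.1 (lmFit, eBayes; R 4.3.3) with the time point as a block, which follows from the labelled times: the mean difference (2 residual degrees of freedom), its change per step (1 residual degree of freedom before moderation) and the early minus late contrast over 12 arrays. P-values were 2-sided and adjusted by Benjamini-Hochberg. Counts of signs carry no test. Scripts were tested on simulated data.

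Named genes had the largest weakest pair (12 per direction) or the largest smaller end of a sign change (8 per direction) among genes at or above the median signal; in each of 30 lists of function the largest of each kind; and 10 genes the study names. Genes of the set above 0 h, Zfp genes and others named were chosen after their values were seen. All members and lists were chosen with earlier results of these data known. Alternatives were quantile normalization, relative ranks, filters on signal, all clusters, an offset of 50 before log2, no block, 1 fit of 12 arrays and leaving out each pair. Combinations of the signal filter with a scaling, and the filter at the 25th percentile, were added after seeing the data.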

Additional observations from a re-analysis of the deposited data

Results flagged for a closer look

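Of the named genes, 5 had differences of one sign in all 3 early pairs and of the other sign in all 3 late pairs. Rcor2, a corepressor subunit, was higher early (0.26, 0.37 and 0.36) and lower late, an early minus late difference of 0.55 (limma adjusted p = 0.128). Sbno2 had an early minus late difference of 0.57 (limma adjusted p = 0.188). Rbm10, an RNA-binding splicing regulator, had 0.50 (limma adjusted p = 0.193). Phlda3, a p53 target, had 0.23 (limma adjusted p = 0.381). Id4, a helix-loop-helix inhibitor, was lower early and higher late, with -0.60 (limma adjusted p = 0.193). The contrast passed the threshold for none of them. By sign alone, 549 of the genes higher in all 3 early pairs were lower in all 3 late pairs and 306 of those lower early were higher late. Differences of pairs at 1 time each have no replicate arrays.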

How the results depend on the processing

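The test of the change of the difference depended most on the processing: 0 genes rose and 0 fell over all genes, 97 and 37 above the median signal, 98 and 50 with quantile normalization added, 173 and 65 with an offset of 50 added, 1 and 0 above the 25th percentile, 2 and 0 with quantile normalization alone, and 0 and 0 with ranks. The moderation had 5.1 prior degrees of freedom over all genes and 9.5 above the median, beside 1 residual; the cause of the difference in calls was not tested. Genes lower in all 3 pairs numbered 909 above the median and 3810 over all transcript clusters. Genes with a log2 difference of 0.32 or more in all 3 pairs numbered 11 higher and 24 lower over all clusters, 3 and 4 with the offset, which shrinks low values by construction, and 6 lower above the median. Sign changes from higher to lower numbered 9 with quantile normalization, 6 above the median, 29 over all clusters and 2 with the offset, and from lower to higher 86 over all clusters and 21 with the offset. Genes that kept their sign in the late pairs numbered 22 over all clusters.

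Leaving out 1 pair gave 0 to 1 genes higher in the mean and 0 lower. Gclc turned to -0.003 with quantile normalization and -0.027 with ranks. Over the pairs left out, Rbm3 ranged from -0.028 to 0.052 and Ywhaz from -0.021 to 0.009. Of 104 named genes, 103 kept sign and call with quantile normalization, and 21 named genes passed the test of change only above the median signal. Without the replicate block of time, 0 genes passed in either direction, and all 60 named genes tested on the mean kept sign and call. One array per condition, with pooled dishes, leaves dish and array variation unmeasured, and no background level was measured against which low signals could be judged.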
